A study of Mus musculus with 12 samples.

Results

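Colonic organoids were examined here for 9 genes of glutathione synthesis, glutathione recycling and cystine import, out of 54532 genes in the expression table. The genes were taken by name as a pathway list, chosen with earlier results of these data known: *Gclc*, *Gclm* and *Gss* for synthesis, *Gsr* for recycling, *Slc7a11* and *Slc3a2* for cystine import, and *Ggt1*, *Ggct* and *Oplah* for the γ-glutamyl cycle. All 9 had a row, and 8 passed the filter for testing, which kept the 12740 genes at 1 FPKM or more in at least 3 libraries. *Ggt1* did not pass it. *Ggct* passed it through exactly 3 libraries, all labelled KO.

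Glutathione is a tripeptide of glutamate, cysteine and glycine that buffers cells against oxidants, and it is made in consecutive steps by glutamate-cysteine ligase and glutathione synthetase. Cysteine, usually the limiting amino acid, enters many cells as cystine through system xc-, in which the light chain SLC7A11 exports glutamate in exchange and the heavy chain SLC3A2 carries the complex to the membrane. Oxidised glutathione is returned to its reduced form by glutathione reductase with NADPH, while the γ-glutamyl cycle takes glutathione apart and recovers its amino acids. Several of these genes are known targets of NRF2, a transcription factor that is freed under oxidative stress, and *Slc7a11* and *Slc3a2* are also known targets of ATF4, the transcription factor of the amino acid and unfolded protein responses.

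The 12 libraries came from mouse colonoids, which are epithelial organoids grown from colonic crypts, and fell into 4 groups of 3. Control colonoids carried *Hmox1* fl/fl, the floxed allele of the gene for heme oxygenase-1 (HO-1), without a Cre in their label. The other colonoids are titled KO and labelled *Hmox1* KO /Vil1 Cre, a cross of the floxed allele to a Cre that is driven by the villin promoter and so acts in intestinal epithelium. Replicate 3 of their hemin group has the genotype label *Hmox1* fl/fl /Vil1 Cre in place of *Hmox1* KO /Vil1 Cre, and was kept by its title. Each genotype was given vehicle or 200 µM hemin, the oxidised form of heme, for 24 h. The labels do not say whether the 3 libraries of a group came from separate animals or cultures, so the p-values below measure the spread between these libraries, which may be technical.

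Between 11648801 and 25101868 fragments per library lay on genes. The epithelial markers *Epcam*, keratins and others were all detected in every group, with a summed level between 5859 and 10126 FPKM, while immune markers summed to 1.04 to 5.17 FPKM and fibroblast markers to 0.443 to 1.35 FPKM, with *Col1a2* and *Dcn* at 0 in every library. *Hmox1* itself was lower under vehicle in colonoids labelled KO, at 2.52 ± 0.547 FPKM against 7.45 ± 0.541 in control (mean ± SD, n = 3), but under hemin it was higher, at 1314 ± 68.1 against 456 ± 64.6 FPKM (log2 difference 1.53, adjusted p = 3.3e-06). The transcript thus goes against the label in the hemin groups, although counts cover the whole gene model, including any part outside the deleted segment, and the colonoids are called "labelled KO" throughout. Replicate 3 of the control hemin group stood apart from replicates 1 and 2 in several of the 9 genes, and calls that change without it are given both ways. A single small RNA gene, *Gm23935*, held 16.8%, 29% and 21% of the FPKM sum in replicate 1 of control vehicle, replicate 1 of control hemin and replicate 2 of labelled KO hemin, against 1.18% to 2.81% in the other libraries, which bears on any rescaling to a fixed sum.

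The 9 genes differed widely in FPKM. This measure is per kilobase of gene model, so the order of genes below also depends on the models used. In control colonoids under vehicle *Gsr* was highest at 77.7 ± 1.51 FPKM (SD, n = 3), followed by *Gclc* at 56.6 ± 1.06, *Gss* at 47.7 ± 1.2, *Slc3a2* at 36.3 ± 2.27 and *Gclm* at 29.4 ± 0.223. *Slc7a11* lay far lower at 3.01 ± 0.213 FPKM, *Oplah* at 0.879 ± 0.0459 and *Ggct* at 0.679 ± 0.00749, and *Ggt1* was near 0. No neighbours in this order overlapped between their 3 libraries. In colonoids labelled KO under hemin the order was different, with *Gclc* first at 779 ± 14.6 FPKM, then *Gclm* at 181 ± 1.81, *Slc3a2* at 172 ± 10.2, *Gsr* at 154 ± 2.55 and *Gss* at 98.8 ± 2.77, and *Slc7a11* at 28.1 ± 0.438.

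**Figure D1:**
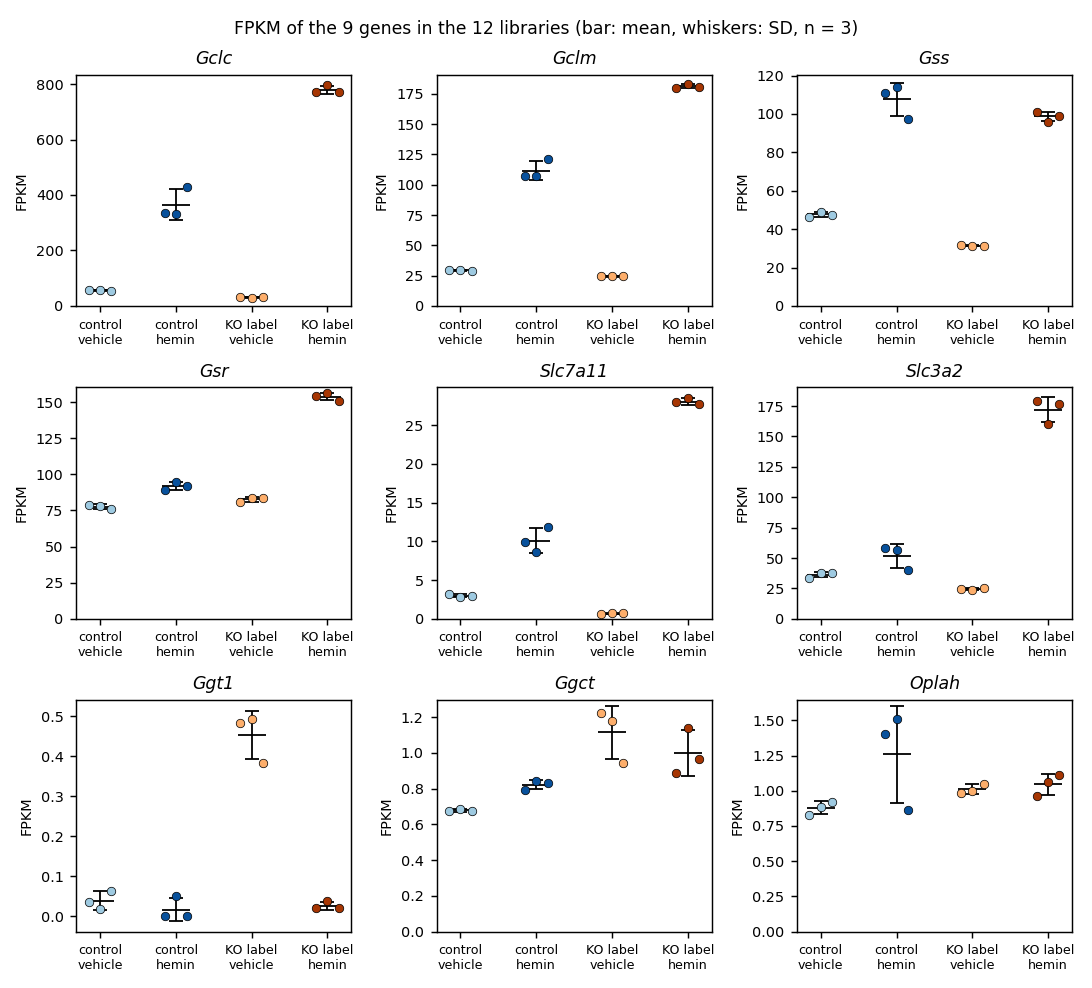
FPKM of each of the 9 genes in each library, with 1 panel per gene, its own linear vertical axis and the 4 groups along the horizontal axis. Points are libraries, long bars are group means and whiskers are the SD (n = 3), and *Gclc*, *Gclm*, *Slc7a11* and *Slc3a2* stand highest in the 3 libraries labelled KO under hemin, and *Ggt1* stands at 0.383 FPKM or more in the 3 libraries labelled KO under vehicle alone.

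With hemin all 6 synthesis, recycling and import genes rose in both labelled genotypes by adjusted p. The group mean of *Gclc* was 6.46-fold higher with hemin in control colonoids and 25.3-fold higher in those labelled KO, where that of *Slc7a11* was 41.1-fold higher from a very low level. Among the 8 tested genes 4 were called higher in control (adjusted p under 0.05 and a log2 difference above 1) and 0 lower, where 2.17% of all tested genes were called higher and 5.93% lower. In colonoids labelled KO 5 of 8 were called higher and 0 lower, where the shares of all tested genes were 4.87% and 8.07%. By adjusted p alone 6 of 8 rose and 0 fell in each genotype, while 23.2% of all tested genes rose and 26.7% fell in control, and 29.9% and 30.4% did so in those labelled KO. All 3 hemin libraries lay above all 3 vehicle libraries for 7 of the 8 genes in control and for 6 in those labelled KO, and below them for 0, while all tested genes did so above for 24.6% and below for 27.8% in control, and for 37.2% each way in those labelled KO. The median log2 difference of the 8 genes was 0.82 in control and 2.19 in those labelled KO, beside -0.01 and 0 over all tested genes.

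**Figure D2:**
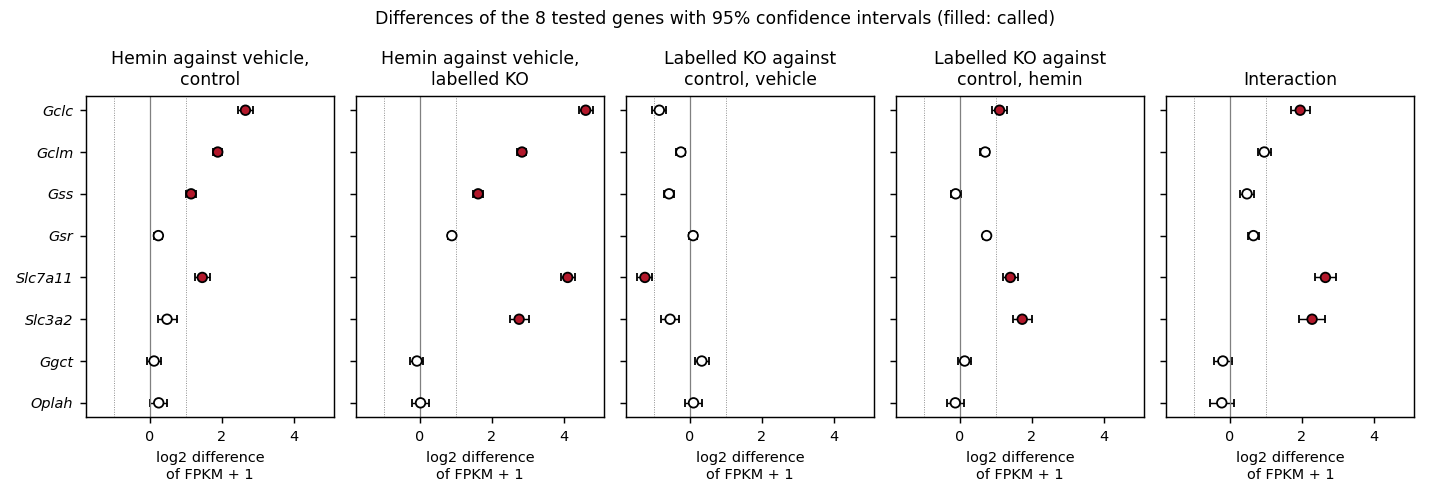
Log2 difference of FPKM + 1 from limma for each tested gene in the 4 group comparisons and for the interaction of genotype and hemin, with bars for 95% confidence intervals, filled circles for called differences and dotted lines at a log2 difference of 1 in size. The synthesis, recycling and import genes lie right of 0 for hemin in both labelled genotypes and for the interaction, while *Gclc*, *Gclm*, *Gss*, *Slc7a11* and *Slc3a2* lie left of 0 for labelled KO against control under vehicle.

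*Gclc* encodes the catalytic subunit of glutamate-cysteine ligase, the rate-limiting enzyme of glutathione synthesis (ENSMUSG00000032350, chromosome 9 from 77754535 to 77794485, plus strand, GRCm38). In control colonoids it stood at 57.7, 56.4 and 55.6 FPKM under vehicle and at 334, 332 and 430.1 FPKM under hemin. In colonoids labelled KO it stood at 31.9, 30.1 and 30.5 FPKM under vehicle and at 769.7, 796 and 772 FPKM under hemin. The 4 groups did not overlap, and the libraries labelled KO were the lowest of all under vehicle and the highest of all under hemin. On the log2(FPKM + 1) scale the hemin difference was 2.66 (SE 0.09, adjusted p = 5.2e-09) in control and 4.61 (SE 0.09, adjusted p = 5.1e-11) in those labelled KO, the latter larger in size than for 99.9% of tested genes. Labelled KO against control gave -0.85 under vehicle (adjusted p = 2.3e-05) and 1.1 under hemin (adjusted p = 3.5e-06). The test of the difference between the hemin responses, the interaction, gave 1.95 (SE 0.13, adjusted p = 2.3e-06).

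*Gclm* encodes the modifier subunit, which raises the activity of the ligase (ENSMUSG00000028124, chromosome 3 from 122245557 to 122270732, plus strand). Its RefSeq promoter, the 250 bases before the annotated start site, is shown because NRF2 acts through antioxidant response elements (AREs), and the match to the ARE core TGACNNNGC is in capitals, here GCACCGTCA on the opposite strand with its first base 134 bases before the start site.
*Gclm* promoter, chr3:122245307-122245556, plus strand, GRCm38.p6: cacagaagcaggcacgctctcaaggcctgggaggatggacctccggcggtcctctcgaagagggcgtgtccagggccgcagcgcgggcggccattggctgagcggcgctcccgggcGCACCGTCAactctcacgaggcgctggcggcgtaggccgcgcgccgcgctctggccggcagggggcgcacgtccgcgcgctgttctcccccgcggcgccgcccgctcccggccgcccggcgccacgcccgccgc
Of the 32851 promoter windows of this length 10.2% held that core on either strand, so the match is a description, and whether NRF2 binds there was not tested. *Gclm* stood at 29.4, 29.6 and 29.2 FPKM under vehicle and 107, 107 and 121 FPKM under hemin in control colonoids. Libraries labelled KO held 24.4, 24.8 and 24.3 FPKM under vehicle and 179.9, 183 and 181 FPKM under hemin. The groups ran in the same order as for *Gclc* with smaller gaps, and again none overlapped. The hemin difference was 1.89 (SE 0.06, adjusted p = 2.1e-09) in control and 2.84 (SE 0.06, adjusted p = 5.1e-11) in those labelled KO, with an interaction of 0.95 (adjusted p = 1.6e-05). Without control hemin replicate 3 the interaction was 1.01 (adjusted p = 6e-07), past the log2 difference of 1 that a call required. Under vehicle the level was lower by a small amount in those labelled KO, with a log2 difference of -0.25 (adjusted p = 0.0049), and under hemin it was higher by 0.7 (adjusted p = 3.5e-06). With libraries rescaled to a fixed sum (TPM) the vehicle difference was -0.11 (adjusted p = 0.72) and the interaction 0.81 (adjusted p = 0.075).

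Both ligase subunits rose, but not in proportion. The ratio of *Gclc* to *Gclm* FPKM was 1.96, 1.9 and 1.9 in control under vehicle and 3.13, 3.11 and 3.55 under hemin, and in those labelled KO it was 1.31, 1.22 and 1.26 under vehicle and 4.28, 4.34 and 4.28 under hemin. The catalytic transcript gained on the modifier by 0.76 (log2) with hemin in control and by 1.77 in those labelled KO, and the log2 difference of labelled KO from control was -0.61 under vehicle and 0.4 under hemin. None of these pairs of groups overlapped, and each exact two-sided permutation p was 0.1, the smallest that 3 against 3 allows. The size of this ratio depends on the gene models used, while its change between libraries does not.

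**Figure D3:**
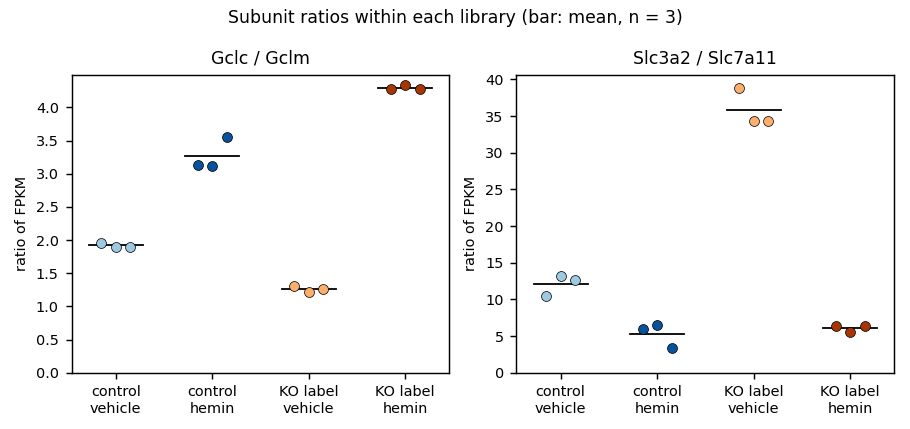
Ratio of *Gclc* to *Gclm* FPKM and of *Slc3a2* to *Slc7a11* FPKM in each library, on linear vertical axes from 0, by group, with points for libraries and lines for group means of 3. The ligase ratio runs from 1.22 to 4.34, lowest in labelled KO under vehicle and highest in labelled KO under hemin, and the transporter ratio runs from 3.42 in replicate 3 of control hemin to 38.9 in a labelled KO vehicle library.

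*Gss*, glutathione synthetase, adds glycine in the last step (ENSMUSG00000027610, chromosome 2 from 155563181 to 155592810, minus strand). Control colonoids held 46.5, 48.9 and 47.6 FPKM under vehicle and 111, 114 and 97.6 FPKM under hemin. Those labelled KO held 31.7, 31.3 and 31.4 FPKM under vehicle and 101, 95.9 and 99.1 FPKM under hemin. Hemin libraries lay above vehicle libraries in both genotypes, but the hemin groups of the genotypes overlapped, unlike those of *Gclc* and *Gclm*. The hemin difference was 1.15 (SE 0.06, adjusted p = 1.5e-07) in control and 1.62 (SE 0.06, adjusted p = 5.9e-09) in those labelled KO. Under vehicle *Gss* was lower in those labelled KO (log2 difference -0.58, adjusted p = 2.8e-05), and under hemin the difference was -0.12 with a 95% confidence interval of -0.26 to 0.02 (adjusted p = 0.17). Without control hemin replicate 3 the latter was -0.19 (adjusted p = 0.0049). The interaction of 0.47 (adjusted p = 0.0032) was 0.33 (adjusted p = 0.55) with TPM, and the vehicle difference -0.45 (adjusted p = 0.1). *Gss* overlaps *Acss2* on the opposite strand, which had at most 2419 fragments in a library beside 3062 to 13347 for *Gss*, and whether strand was used in counting is not given in the sources used here.

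*Gsr*, glutathione reductase, is the NADPH-dependent enzyme that recycles oxidised glutathione (ENSMUSG00000031584, chromosome 8 from 33652523 to 33698163, plus strand). It was the steadiest of the 6 synthesis, recycling and import genes across the groups, with group means between 77.7 and 154 FPKM. Control colonoids held 78.8, 78.3 and 76 FPKM under vehicle and 88.9, 94.7 and 92 FPKM under hemin, and those labelled KO held 80.7, 83.4 and 83.8 FPKM under vehicle and 154, 156 and 151 FPKM under hemin. The last group stood well above the other 3. The hemin difference was 0.24 (log2, SE 0.05, adjusted p = 0.0019) in control and 0.89 (SE 0.05, adjusted p = 7.9e-08) in those labelled KO, below the log2 difference of 1 that a call required. *Gsr* did not pass the test under vehicle between the genotypes, where the log2 difference was 0.09 with a 95% confidence interval of -0.02 to 0.19 (adjusted p = 0.2), and under hemin it was 0.74 higher in those labelled KO (adjusted p = 6.3e-07). With TPM the hemin difference in control was 0.05 (adjusted p = 0.87) and the interaction, 0.65 here (adjusted p = 6.8e-05), was 0.51 (adjusted p = 0.29).

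NADPH, the cofactor of *Gsr*, is supplied by the pentose phosphate dehydrogenases *G6pdx* and *Pgd*, the malic enzyme *Me1*, and the isocitrate dehydrogenases *Idh1* in the cytosol and *Idh2* in mitochondria. By adjusted p alone 4 of the 5 rose and 1 fell with hemin in each genotype, beside 23.2% and 26.7% of all tested genes in control and 29.9% and 30.4% in those labelled KO, where the fall was that of *Idh2* (named after its values were seen), from 38.4 ± 0.448 to 13.1 ± 1.84 FPKM in control and from 78 ± 3.71 to 17.8 ± 0.935 in those labelled KO. *G6pdx* went from 38.3 ± 0.669 to 59.1 ± 3.62 FPKM in control and from 35 ± 1.34 to 119 ± 3.6 FPKM in those labelled KO, an interaction of 1.13 (adjusted p = 5.6e-06). *Idh1* went from 188 ± 12.9 to 389 ± 30.1 FPKM and from 103 ± 1.53 to 534 ± 28.2 FPKM, an interaction of 1.32 (adjusted p = 1e-05). *Me1* differed most between the genotypes, at 14.8 ± 0.11 FPKM in control and 0.113 ± 0.0244 in those labelled KO under vehicle, and 33.5 ± 6.79 and 9.59 ± 0.684 FPKM under hemin. Its interaction was 2.14 (adjusted p = 6e-06).

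*Slc7a11*, the light chain of system xc- (ENSMUSG00000027737, chromosome 3 from 49892526 to 50443614, minus strand), showed the largest interaction of the 8 tested genes. Its promoter is shown because ATF4 binds composite elements with the core TGATGNAA, and both matches are in capitals, TGATGCAA on the gene's strand starting 66 bases before the start site and TTGCATCA, a match on the opposite strand, starting 47 before it.
*Slc7a11* promoter, chr3:50443614-50443863, minus strand, GRCm38.p6: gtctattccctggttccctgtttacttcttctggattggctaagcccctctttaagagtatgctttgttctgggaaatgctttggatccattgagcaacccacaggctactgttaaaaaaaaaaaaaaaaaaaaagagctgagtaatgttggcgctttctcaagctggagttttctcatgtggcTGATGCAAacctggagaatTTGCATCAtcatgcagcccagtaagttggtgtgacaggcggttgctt
That core occurred in 3.45% of the 32851 promoter windows, on either strand, and the window held no match to the ARE core. The windows of *Slc3a2* and *Gss* held neither, that of *Ggct* held an ARE core, as did 2 of the 4 of *Ggt1*, and the AP-1 motif TGANTCA, in 6.75% of all windows and able to overlap an ARE core, was in none of the 9 windows searched for these 6 genes.

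In control colonoids *Slc7a11* stood at 3.24, 2.82 and 2.97 FPKM under vehicle and 9.86, 8.65 and 11.8 FPKM under hemin. In those labelled KO it stood at 0.624, 0.69 and 0.738 FPKM under vehicle, from 142 to 173 fragments per library, and 28, 28.5 and 27.7 FPKM under hemin. No groups overlapped, and as for *Gclc* the genotype labelled KO was below control under vehicle and above it under hemin. The hemin difference on the log2(FPKM + 1) scale was 1.46 (SE 0.09, adjusted p = 4.8e-07) in control and 4.11 (SE 0.09, adjusted p = 1.2e-10) in those labelled KO, and the interaction was 2.65 (SE 0.13, adjusted p = 4.4e-07). Labelled KO against control gave -1.25 under vehicle (adjusted p = 1.4e-06) and 1.4 under hemin (adjusted p = 6.8e-07). A pseudocount of 1 understates the change of so low a gene, and with 0.1 the hemin difference in those labelled KO was 5.17, the vehicle difference -1.99 and the interaction 3.47.

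*Slc3a2*, the heavy chain (ENSMUSG00000010095, chromosome 19 from 8706882 to 8723369, minus strand), pairs with several light chains and is not specific to cystine import. Control colonoids held 33.7, 37.4 and 37.8 FPKM under vehicle and 58.2, 56.4 and 40.5 FPKM under hemin, with replicate 3 of the hemin group close to the vehicle libraries. Those labelled KO held 24.3, 23.7 and 25.4 FPKM under vehicle and 179, 160.1 and 177 FPKM under hemin. Its rise was small in control and large in those labelled KO. The hemin difference was 0.48 (SE 0.12, adjusted p = 0.0061) in control, not passing with TPM at 0.3 (adjusted p = 0.26), and 2.76 (SE 0.12, adjusted p = 1.4e-08) in those labelled KO. The interaction was 2.28 (SE 0.17, adjusted p = 6.1e-06), larger in size than for 99.6% of tested genes. Under vehicle *Slc3a2* was lower in those labelled KO, with a log2 difference of -0.55 (adjusted p = 0.0042) that was -0.42 with TPM (adjusted p = 0.16), and under hemin it was 1.73 higher (adjusted p = 9.7e-07).

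The heavy chain was the more abundant transcript per kilobase in all 12 libraries. The ratio of *Slc3a2* to *Slc7a11* was 10.4, 13.2 and 12.7 in control under vehicle and 5.91, 6.52 and 3.42 under hemin, and in those labelled KO it was 38.9, 34.4 and 34.4 under vehicle and 6.38, 5.61 and 6.38 under hemin. Genotypes were far apart under vehicle, by 1.57 (log2), and overlapped under hemin, by 0.26 (exact two-sided permutation p = 0.7), or -0.02 without control hemin replicate 3. The size of the ratio depends on the gene models used, which are 13922 bases long for *Slc7a11* and 3529 for *Slc3a2*, while its change between libraries does not.

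Of 4 other tested light chains that pair with SLC3A2, 1 rose and 2 fell with hemin in each genotype by adjusted p alone, beside 23.2% and 26.7% of all tested genes in control and 29.9% and 30.4% in those labelled KO. *Slc7a5*, the large neutral amino acid transporter LAT1, was named after its values were seen, and went from 22.3 ± 2.19 to 15.1 ± 0.312 FPKM in control and from 20.8 ± 0.768 to 12.9 ± 0.667 FPKM in those labelled KO, with log2 differences of -0.53 (adjusted p = 0.00012) and -0.65 (adjusted p = 1.8e-05). *Slc7a8* entered the filter through the 3 libraries labelled KO under vehicle alone, so its place among the 2 that fell in those labelled KO is no support. Its levels were 1.87 ± 0.0838 FPKM in that group, 0.579 ± 0.258 in labelled KO under hemin, and 0.191 ± 0.0785 and 0.292 ± 0.0506 in control under vehicle and hemin.

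*Ggt1*, *Ggct* and *Oplah*, the listed genes of the γ-glutamyl cycle, lay at or below 1.51 FPKM in every library and did not follow the synthesis genes. Outside the list *Ggt6*, given below, stood higher, while *Ggt5* and *Ggt7* were near 0. *Ggt1* (ENSMUSG00000006345, chromosome 10 from 75561604 to 75586200, plus strand), the membrane enzyme that starts the breakdown of extracellular glutathione, had 2, 1 and 3 fragments in control under vehicle and 0, 2 and 0 under hemin. In those labelled KO it had 27, 29 and 22 fragments under vehicle, or 0.484, 0.492 and 0.383 FPKM, and 1, 3 and 1 under hemin. Its signal was thus nearly all in the 3 libraries labelled KO under vehicle. *Ggt1* stayed outside the filter, and without a filter the log2(FPKM + 1) difference from control under vehicle was 0.48 (limma adjusted p = 5.8e-06) and the hemin difference in those labelled KO -0.5 (limma adjusted p = 2.5e-06). On fragments, with limma-voom, the same log2 differences were 3.41 (adjusted p = 0.00012) and -3.71 (adjusted p = 3.4e-05). In the other groups a library of this depth with 3 fragments or fewer cannot be told from 0.

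*Ggct*, γ-glutamylcyclotransferase, which releases 5-oxoproline (ENSMUSG00000002797, chromosome 6 from 54982580 to 54992950, minus strand), ranged from 0.673 to 0.688 FPKM in control under vehicle and 0.792 to 0.841 under hemin. In those labelled KO it ranged from 0.943 to 1.22 FPKM under vehicle and 0.888 to 1.14 under hemin. Its group mean under vehicle was 1.11 FPKM in those labelled KO and 0.679 in control, a difference given without a test because the gene entered the filter through libraries labelled KO. Neither hemin difference passed the test, at 0.12 (95% confidence interval -0.07 to 0.3) in control and -0.08 (-0.27 to 0.1) in those labelled KO. *Oplah*, 5-oxoprolinase, which returns glutamate to the pool (ENSMUSG00000022562, chromosome 15 from 76296601 to 76328015, minus strand), passed none of the 5 tests. Its libraries ranged from 0.831 to 0.922 FPKM in control under vehicle, 0.985 to 1.05 in labelled KO under vehicle and 0.964 to 1.11 in labelled KO under hemin, and stood at 1.4, 1.51 and 0.865 in control under hemin. Without the last of these the hemin difference in control was 0.38 (adjusted p = 0.0019) against 0.25 with it (adjusted p = 0.073), the genotype difference under hemin was -0.26 (adjusted p = 0.021) against -0.13, and the interaction -0.36 (adjusted p = 0.021) against -0.23. *Oplah* had 59 to 145 fragments per library and overlaps *Exosc4* on the opposite strand with up to 575.

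*Gclc*, *Gclm*, *Slc7a11* and *Slc3a2* were each lower in colonoids labelled KO than in control under vehicle and higher under hemin, by adjusted p. Under vehicle 5 of the 8 tested genes were lower in those labelled KO by adjusted p alone and 1 was higher, beside 16.8% and 17.4% of all tested genes. The higher gene was *Ggct*, which is no support for a difference since it entered the filter through those libraries, and *Slc7a11* alone was called, as lower, where 3.27% of all tested genes were called lower and 3.53% higher. Libraries of the genotypes did not overlap for 8 of the 8, with 5 lower and 3, *Ggct* among them, higher in those labelled KO, beside 26.9% and 30.6% of all tested genes. Under hemin 5 were higher and 0 lower, beside 19.7% and 14.7% of all tested genes, and 3 of these, *Gclc*, *Slc7a11* and *Slc3a2*, were called higher, where 3.1% of all tested genes were called higher and 2.91% lower. There 6, again with *Ggct*, were higher and 0 lower without overlap, beside 23% and 17.9% of all tested genes. The interaction was positive with an adjusted p under 0.05 for 6 of 8 genes and negative for 0, beside 13.3% and 10.5% of all tested genes, and it was called, as positive, for the same 3, where 2.57% of all tested genes were called positive and 2.56% negative. These comparisons share libraries and are not independent of each other. Groups also differed in summed cell markers, and the marker counts with hemin stand beside 23.2% of all tested genes rising and 26.7% falling in control and 29.9% and 30.4% in those labelled KO. The goblet markers summed to 1571 to 1832 FPKM in control under vehicle, 1041 to 1403 in control under hemin, 1886 to 1978 in labelled KO under vehicle and 468 to 534 in labelled KO under hemin, with 0 of 7 at 0. The largest part was *Tff3*, with means of 954, 791, 1047 and 224 FPKM in the same order. By adjusted p 0 rose and 5 fell with hemin in control, and 0 rose and 6 fell in those labelled KO. Under vehicle 2 were higher and 3 lower in those labelled KO than in control. Stem and dividing cell markers, none of 8 at 0, summed to 186 to 209 FPKM and 80 to 93.7 FPKM in control under vehicle and hemin, and to 264 to 267 and 138 to 153 FPKM in those labelled KO, and 8 of 8 fell with hemin in each genotype by adjusted p, although *Lgr5* and *Smoc2* entered the filter through vehicle libraries alone. Colonocyte markers, none of 8 at 0, summed to 2911 to 3159 FPKM and 5187 to 7569 FPKM in control under vehicle and hemin, and to 2131 to 2186 and 3763 to 4665 FPKM in those labelled KO, most of it from *Car1*, whose means were 2129, 4918, 1314 and 2849 FPKM in the same order. Of the 8, 5 rose and 2 fell with hemin in control and 3 rose and 3 fell in those labelled KO by adjusted p, and under vehicle 3 were higher and 5 lower in those labelled KO than in control. Of 7 epithelial markers, none at 0, 4 rose and 0 fell with hemin in control and 6 rose and 1 fell in those labelled KO, where their sum went from 5859 to 5912 FPKM under vehicle to 7633 to 8899 FPKM under hemin, beside 8229 to 9148 and 8081 to 10126 in control. The enteroendocrine list, also with 0 of 7 at 0, summed to 27.5 to 45.3 FPKM in control and 418 to 649 FPKM in those labelled KO. There most of it came from *Pyy*, at 403 and 340.3 FPKM under vehicle and hemin, beside 7.17 and 3.28 in control. By adjusted p 7 were higher and 0 lower in those labelled KO under vehicle, and 5 and 0 under hemin, beside the genotype shares above. *Tph1* entered the filter through libraries labelled KO alone and is no support. Under hemin *Gcg* was lower there, at 2.79 against 4.06 FPKM. Of 6 colon position genes 3, *Hoxb13*, *Hoxd13* and *Hoxd10*, were at 0 fragments in both control groups and 0 in those labelled KO. Under vehicle *Hoxb13* and *Hoxd13* stood at 109.9 and 59.1 FPKM in those labelled KO. *Hoxb6* went the other way, at 56.9 FPKM in control and 3.9 in those labelled KO. Every comparison of the genotypes, and the interaction, thus also compares colonoids that differ in these genes, and the 2 cannot be told apart. The part of these differences in the results was not tested, and in bulk libraries fewer cells of a type and less RNA per cell cannot be told apart.

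Most NRF2 targets outside the 9 genes rose with hemin. Of 10 tested, 5 of which (*G6pdx*, *Pgd*, *Me1*, *Txnrd1* and *Abcc1*) also stand in the NADPH, reductase or pump lists, 9 rose with hemin in control and 10 in those labelled KO by adjusted p alone, beside 23.2% and 29.9% of all tested genes. Of these 4 and 9 were called higher, beside 2.17% and 4.87% of all tested genes, and 9 had a positive interaction by adjusted p, beside 13.3%. *Nqo1*, a quinone reductase, went from 33.4 ± 2.71 to 286 ± 35.6 FPKM in control and from 13 ± 0.778 to 364 ± 25.5 FPKM in those labelled KO, with log2 differences of 3.06 (adjusted p = 3.2e-09) and 4.71 (adjusted p = 5.3e-11). *Srxn1*, sulfiredoxin, went from 38.9 ± 1.4 to 141 ± 0.77 FPKM and from 22.5 ± 0.771 to 293 ± 27.4 FPKM, with an interaction of 1.81 (adjusted p = 7.9e-07). The median log2 difference of the 10 was 0.85 in control and 1.73 in those labelled KO, and -0.36 between the genotypes under vehicle, where 7 were lower and 0 higher, beside 16.8% and 17.4% of all tested genes. Among 7 regulators *Nfe2l2*, the gene of NRF2 itself, was lower in those labelled KO under both conditions, at 50.4 ± 1.92 against 89.7 ± 3.46 FPKM under vehicle (adjusted p = 0.00014) and 51.5 ± 3.17 against 101 ± 18.8 under hemin (adjusted p = 5.2e-05). *Keap1*, which holds NRF2 in check, passed none of the tests. *Bach1*, a heme-binding repressor of these targets, rose with hemin by 0.47 in control (adjusted p = 0.00082) and 0.77 in those labelled KO (adjusted p = 1.6e-05), and *Mafk*, a small MAF partner, by 0.52 (adjusted p = 0.0013) and 1.31 (adjusted p = 1e-06). Among the 7, 2 rose and 1 fell with hemin in control by adjusted p, beside 23.2% and 26.7% of all tested genes. In those labelled KO 4 rose and 0 fell, beside 29.9% and 30.4%. The fall in control was that of *Maff*, another small MAF (log2 difference -0.78, adjusted p = 0.0042).

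ATF4 targets outside the 9 genes fell more often than they rose with hemin. Whether NRF2 or ATF4 acted on *Slc7a11*, *Slc3a2* or the other genes was not tested. Of 12 tested, with *Chac1* and *Slc7a5* shared with the breakdown and light chain lists, 1 rose and 9 fell with hemin in control by adjusted p alone, and 2 rose and 6 fell in those labelled KO. Of all tested genes 23.2% rose and 26.7% fell in control and 29.9% and 30.4% did so in those labelled KO, and the list had a median log2 difference of -0.73 and -0.23 in the same order. The interaction was positive for 3 of the 12 and negative for 3 by adjusted p, beside 13.3% and 10.5% of all tested genes. It was called positive for 3 and negative for 1, beside 2.57% and 2.56%, the latter being *Phgdh* at -1.23 (adjusted p = 0.0002). Those that rose in colonoids labelled KO were *Chac1* and *Trib3*. *Chac1*, which cleaves intracellular glutathione, went from 11.9 ± 1.23 to 27.7 ± 6.08 FPKM in control and from 1.48 ± 0.117 to 26.8 ± 7.29 FPKM in those labelled KO, an interaction of 2.31 (adjusted p = 0.00014). *Trib3*, a pseudokinase, went from 15.9 ± 1.95 to 5.85 ± 1.08 FPKM in control and from 0.476 ± 0.0624 to 4.73 ± 1.02 FPKM in those labelled KO, an interaction of 3.25 (adjusted p = 2e-06). *Atf4* itself was at 129 ± 4.42 and 129.8 ± 36.6 FPKM in control and went from 86.7 ± 2.76 to 128 ± 7.79 FPKM in those labelled KO (log2 difference 0.56, adjusted p = 0.014), and its interaction did not pass (0.59, adjusted p = 0.1). Of the 5 tested genes of ATF4 and its partners 1 rose and 2 fell with hemin in control, and 4 rose and 0 fell in those labelled KO, beside the same shares of all tested genes. *Ddit3*, the stress-induced factor CHOP, rose in both, by 0.51 (adjusted p = 0.00066) and 1.16 (adjusted p = 9.3e-07). *Atf3*, another stress-induced partner, fell by 0.65 on the log2 scale in control and was 1.3 higher with hemin in those labelled KO, an interaction of 1.96 (adjusted p = 2e-05), and the other that fell in control was *Cebpb* (log2 difference -1.43, adjusted p = 0.0089).

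**Figure D4:**
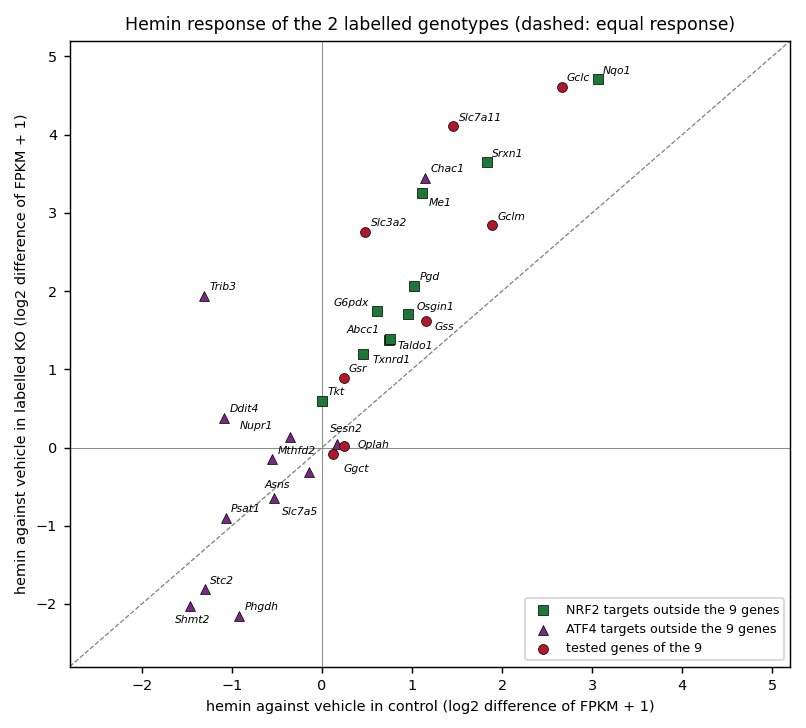
Log2 difference of FPKM + 1 between hemin and vehicle in control colonoids (horizontal) and in colonoids labelled KO (vertical) for the 8 tested genes of the 9 (circles), NRF2 targets (squares) and ATF4 targets (triangles), with a dashed line of equal response. *Gclc* at 2.66 and 4.61 lies near *Nqo1* at 3.06 and 4.71, *Slc3a2* at 0.48 and 2.76 lies furthest above the line among the circles after *Slc7a11*, and most triangles lie left of 0.

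Glutathione leaves cells through the multidrug resistance proteins and enters mitochondria through SLC25 carriers. Of 8 such genes 5 rose with hemin in control and 7 in those labelled KO by adjusted p alone, with 0 lower in either, beside 23.2% and 29.9% of all tested genes higher. The 7 include *Abcc2*, whose rise there is no support, since it entered the filter through the 3 libraries labelled KO under hemin alone. *Abcc4* went from 16.1 ± 0.858 to 33.1 ± 1.76 FPKM in control and from 14.6 ± 0.115 to 70.3 ± 2.88 FPKM in those labelled KO, an interaction of 1.2 (adjusted p = 4.6e-06). *Abcc3* went from 38.2 ± 3.68 to 127 ± 7.51 FPKM and from 24.7 ± 0.937 to 173 ± 13.5 FPKM, an interaction of 1.05 (adjusted p = 0.00011). *Abcc2* was at 0.149 ± 0.0525 and 0.165 ± 0.0225 FPKM in control and went from 0.235 ± 0.0216 to 2.76 ± 0.277 FPKM in those labelled KO. Among 8 tested genes of glutathione breakdown and cysteinylglycine cleavage 2 rose and 3 fell in control, beside 23.2% and 26.7% of all tested genes, and 4 rose and 2 fell in those labelled KO, beside 29.9% and 30.4%. *Chac1* led the risers, and *Ggt6*, another γ-glutamyltransferase, fell in control from 19.6 ± 1.1 to 8.26 ± 3.16 FPKM (log2 difference -1.22, adjusted p = 0.00045).

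Genes with the most similar profile to each of the 8 were found by the root mean square difference of their log2 values over the 12 libraries after each gene's mean was removed. *Gclc* was nearest to *Nqo1* at 0.34, the ferritin light chain *Ftl1* at 0.44 and *Srxn1* at 0.46, on a scale where the SD of *Gclc* itself was 1.97. *Gclm* was nearest to *Gstp-ps* at 0.14, *Ikbkg* at 0.19 and the ferritin heavy chain *Fth1* at 0.2, and *Slc7a11* to *Srxn1* at 0.25, *Akr1b8* at 0.31 and *Fth1* at 0.34. *Slc3a2* was nearest to *Fetub* at 0.25, *Abcc4* at 0.3 and *Fam129a* at 0.32. *Gss* was nearest to the taurine transporter gene *Slc6a6* at 0.07, with *Sdcbp2* at 0.09 and *Ccdc107* at 0.11, and *Gsr* to *Dusp6* at 0.07, *Aak1* at 0.08 and *Tshz1* at 0.08. *Ggct* and *Oplah* varied little, each with an SD of 0.14, so that their nearest genes, *Ubr2* at 0.06 and *Swi5* at 0.04, carry little shape to share. These are descriptions over libraries of 4 groups and say nothing of shared function.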

How the data were processed

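RNA of 12 colonoid libraries was sequenced after poly-A selection. Per the submitters' processing notes, reads passed fastp, were aligned with HISAT2 2.0.5 to mm10 and counted per gene with featureCounts 1.5.0-p3. The authors deposited FPKM (fragments per kilobase of gene model, scaled for library depth) for 54532 genes, with gene positions that matched GRCm38. FPKM times gene length came out as whole multiples of 1 fragment for 100% of values above 0 (tolerance 0.001), which gave the fragments per library, 11648801 to 25101868. Deposited FPKM were used without rescaling. Median-of-ratios factors computed from them were 1.01 in every library, so scaling by these factors could change little and is no check of the deposited scale. The limma-voom alternative kept that scale too, and how the depth of each library was set is not known here.

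Genes at 1 FPKM or more in at least 3 of 12 libraries were kept (12740). log2(FPKM + 1) was fitted with limma 3.58.1 in R 4.3.3, with 4 group means, an intensity trend and 8 residual degrees of freedom, and p-values were adjusted (Benjamini-Hochberg) over all 12740 genes. Calls required both an adjusted p under 0.05 and a log2 difference above 1 in size. The fold changes refer to the log2(FPKM + 1) scale, which understates low genes, except where group means are divided. Ratios within a library were compared by exact permutation. The test was tried on simulated data with a single dispersion for all genes and groups, changed in the labelled KO hemin group alone. Of 196 changed genes among 12358, 91.8% were recovered for the interaction at a true fold of 4, and 8 unchanged genes were called. The real groups differ in spread, so these rates describe the simulated setting and not these libraries.

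The 9 genes and all lists were chosen with earlier results of these data known. From each pathway list up to 3 genes were named, those with the largest interaction among genes called in any comparison, and regulators could all be named. Second records of a gene symbol at 0 in every library were left out of list counts. *Hmox1* served as the check of labels. Replicate numbers did not pair libraries: same-numbered libraries of different groups had deviations correlated by -0.04 on average (-0.33 to 0.18, 18 pairs). Within groups the chi-square per degree of freedom of fragments was 1.93 to 43.1, so no pair agreed within sampling noise. Alternatives were a pseudocount of 0.1, no filter, a mean of at least 5 FPKM, TPM, median-of-ratios scaling, no trend, only the groups compared, limma-voom on fragments, adjusted p alone, a replicate block, and leaving out each library. Promoters came from RefSeq (GRCm38.p6), which held 6 of the 9 genes.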

Additional observations from a re-analysis of the deposited data

Results flagged for a closer look

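The hemin response differed between the labelled genotypes for 6 of the 8 tested genes, by the interaction term of the limma fit adjusted over 12740 genes, beside 13.3% of all tested genes with a positive and 10.5% with a negative interaction, and in each of the 6 the rise was larger in colonoids labelled KO. The difference between the responses, on the log2(FPKM + 1) scale, was 2.65 for *Slc7a11* (adjusted p = 4.4e-07), 2.28 for *Slc3a2* (adjusted p = 6.1e-06) and 1.95 for *Gclc* (adjusted p = 2.3e-06). It was 0.95 for *Gclm* (adjusted p = 1.6e-05), 0.65 for *Gsr* (adjusted p = 6.8e-05) and 0.47 for *Gss* (adjusted p = 0.0032). For the last 3 the interaction did not pass with TPM. Groups of 3 libraries are too small for a test of single outlying libraries.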

How the results depend on the processing

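Counts of called genes among the 8 were 4 and 5 for hemin in control and in labelled KO, 1 and 3 for genotype under vehicle and hemin, and 3 for the interaction. With adjusted p alone the vehicle, hemin and interaction counts were 6, 5 and 6, and with limma-voom on every gene with 10 fragments or more in total over the 12 libraries, chosen after seeing the data, the vehicle count was 2, of 9 tested, *Ggt1* being the other. There its interaction was -2.71 (adjusted p = 0.065), against -0.47 (adjusted p = 0.00023) on log2(FPKM + 1) without a filter. Leaving out each library gave 4 to 4, 5 to 5, 1 to 1, 3 to 3 and 3 to 4, where the 4 include *Gclm* without control hemin replicate 3. With a replicate block, although the numbers do not pair the libraries, the counts were 4, 5, 1, 3 and 3. *Oplah* under hemin in labelled KO, never past the threshold, was -0.22 with TPM, -0.14 with TPM without *Gm23935* in the sum (chosen after seeing the data) and 0 to 0.05 on leaving out each library, and the log2 ratio of *Slc3a2* to *Slc7a11* between hemin groups ranged from -0.02 to 0.44 on leaving out each library. TPM moved the median log2 difference of all genes by -0.18 and -0.31 for hemin in control and in labelled KO, 0.14 for genotype under vehicle and -0.13 for the interaction, and cost 8 differences of *Gclm*, *Gss*, *Gsr* and *Slc3a2* their threshold, none of which was lost with TPM without *Gm23935* in the sum, where *Gsr* under vehicle became 0.15 (adjusted p = 0.036). The share of calls that were higher went from 26.8% to 15.5% with TPM for hemin in control, from 37.6% to 14.7% in labelled KO (20.2% without *Gm23935*, 48.3% at a mean of at least 5 FPKM), and from 50.2% to 34% for the interaction (36.5% and 63.2%). Depth limits *Ggt1*, with 0 to 3 fragments in 9 libraries, and *Oplah*, with 59 to 145.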

Other observations

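Of 5 tested carriers of cysteine, glutamate and glycine other than system xc-, 2 rose and 0 fell with hemin in control, beside 23.2% and 26.7% of all tested genes, and 3 rose and 2 fell in colonoids labelled KO, beside 29.9% and 30.4%, by adjusted p alone. *Slc1a4*, named after its values were seen, was called higher in both, from 31.6 to 99.9 FPKM in control and from 26.9 to 109 in those labelled KO. *Slc3a1*, the heavy chain of the renal-type cystine transporter, went from 8.92 ± 0.235 to 19.7 ± 5.56 FPKM in control and from 7.86 ± 0.155 to 4.98 ± 0.589 FPKM in those labelled KO (SD, n = 3), with an interaction of -1.6 (limma adjusted p = 0.00042). *Slc1a5*, a glutamine carrier, was at 53.7 ± 2.94 and 58.7 ± 11.1 FPKM in control and went from 50.9 ± 2.5 to 26.8 ± 1.51 FPKM in those labelled KO, an interaction of -1.01 (adjusted p = 0.0012). *Slc6a9*, the glycine transporter GLYT1, was at 5.91 ± 0.511 and 5.38 ± 1.13 FPKM in control and went from 3.03 ± 0.165 to 7.47 ± 0.202 FPKM in those labelled KO, an interaction of 1.2 (adjusted p = 0.0004).

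Among 7 glutaredoxins and thioredoxin reductases, which use glutathione or NADPH to reduce protein thiols, 3 rose and 3 fell with hemin in each genotype by adjusted p alone, beside the same shares of all tested genes. *Glrx*, the cytosolic glutaredoxin, went from 8.22 ± 0.874 to 23.5 ± 2.93 FPKM in control and from 5.29 ± 0.317 to 12.7 ± 1.14 FPKM in those labelled KO. *Txnrd1*, the cytosolic thioredoxin reductase, went from 57.8 ± 2.58 to 79.8 ± 1.63 FPKM and from 47.6 ± 0.932 to 110.3 ± 4.82 FPKM, an interaction of 0.74 (adjusted p = 6.7e-05).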
